A study of Mus musculus with 6 samples.

Results

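The genes described here are 34 genes of glycolysis and of the response to low oxygen, taken by symbol from the 37620 genes of a count table of mouse B cells. All 34 were found, and all 34 passed the filter on low counts, as did 12899 genes in all. The members were split by role into 15 glycolytic enzymes, 6 genes of glucose and lactate transport and of flux control, 12 Hif target genes outside glycolysis, and Hif1a itself. The tested cells (pMIR-Sox2, 3 libraries) carried a retroviral vector with Sox2, and the control cells (pMIR, 3 libraries) carried the empty vector. Both were splenic B cells of C57Bl/6 mice aged 4 months, stimulated with anti-CD40 (1 µg/ml) together with IL-4 (labelled 12.5 µg/ml), infected at 24 and 48 h and sorted for mCherry at 96 h. Whether each replicate came from its own animal is not stated, and the p-values therefore speak only of the spread among these libraries, part of which may be technical. The descriptions give the members of each replicate pair a shared number, 8, 9 or 12.

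Glycolysis turns glucose into pyruvate, and activated B cells, which divide fast, are known to raise it and to release much of the pyruvate as lactate. The Hif transcription factors, of which Hif1a is the oxygen-regulated subunit, switch on glycolytic genes together with genes for blood vessel growth, mitochondrial turnover and their own breakdown. In normal oxygen, prolyl hydroxylases of the Egln family mark Hif1a protein for degradation, so that its activity is set largely at the protein level, which was not measured here. The bound sequence has the core ACGTG or GCGTG, and nearly all glycolytic genes of the list are themselves known Hif targets.

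The promoters of 3 members that rose (Pdk1, Egln3, Bnip3) and 3 that fell (Ddit4, P4ha2, Hk2) are shown because both directions occurred among promoters that hold this core. Each stretch is the 250 bases before the gene's start in RefSeq on GRCm38.p6, written 5′ to 3′ on the gene's strand, with the Hif core in capitals on either strand (CACGT and CACGC are its reverse).
Pdk1 (chr2:71872974-71873223, plus strand): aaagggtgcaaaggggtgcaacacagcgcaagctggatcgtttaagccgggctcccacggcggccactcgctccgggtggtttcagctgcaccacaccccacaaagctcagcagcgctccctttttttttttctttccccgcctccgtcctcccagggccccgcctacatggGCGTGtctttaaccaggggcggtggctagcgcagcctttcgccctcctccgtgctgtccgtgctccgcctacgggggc
Egln3 (chr12:54203875-54204124, minus strand): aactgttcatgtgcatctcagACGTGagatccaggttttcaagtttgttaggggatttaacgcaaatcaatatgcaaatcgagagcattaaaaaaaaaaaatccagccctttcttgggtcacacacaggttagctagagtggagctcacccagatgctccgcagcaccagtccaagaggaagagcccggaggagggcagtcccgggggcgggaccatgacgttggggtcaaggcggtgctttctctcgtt
Bnip3 (chr7:138909507-138909756, minus strand): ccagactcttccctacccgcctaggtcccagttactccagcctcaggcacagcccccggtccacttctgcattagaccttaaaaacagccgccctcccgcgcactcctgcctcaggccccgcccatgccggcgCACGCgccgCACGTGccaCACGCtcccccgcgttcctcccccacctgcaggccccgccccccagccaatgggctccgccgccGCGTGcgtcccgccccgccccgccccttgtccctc
Ddit4 (chr10:59951771-59952020, minus strand): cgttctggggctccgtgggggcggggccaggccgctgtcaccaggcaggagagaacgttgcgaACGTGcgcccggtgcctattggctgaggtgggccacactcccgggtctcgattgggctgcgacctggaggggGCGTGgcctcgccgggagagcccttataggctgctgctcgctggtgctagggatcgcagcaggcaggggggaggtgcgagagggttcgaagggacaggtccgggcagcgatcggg
P4ha2 (chr11:54100674-54100923, plus strand): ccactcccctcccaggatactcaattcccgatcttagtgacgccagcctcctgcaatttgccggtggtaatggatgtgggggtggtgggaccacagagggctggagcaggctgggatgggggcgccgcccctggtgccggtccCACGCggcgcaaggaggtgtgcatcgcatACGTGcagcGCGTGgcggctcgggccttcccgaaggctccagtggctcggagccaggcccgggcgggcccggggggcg
Hk2 (chr6:82774455-82774704, minus strand): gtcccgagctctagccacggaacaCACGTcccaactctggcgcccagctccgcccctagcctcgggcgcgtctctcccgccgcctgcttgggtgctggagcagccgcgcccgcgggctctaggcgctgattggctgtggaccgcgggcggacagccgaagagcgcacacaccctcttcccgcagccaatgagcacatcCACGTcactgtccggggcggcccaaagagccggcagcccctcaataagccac
Within the printed stretches the core began 78 bases before the start in Pdk1 and 229 bases before it in Egln3. A further match in Pdk1 begins 2 bases before the start and runs past the printed end. Ddit4 had it at 187 and 115 bases, P4ha2 at 107, 78 and 69 bases, and Hk2 at 226 and 52 bases. Bnip3 held 5 matches, of which those at 108 and 107 bases overlap and form an E-box, CACGTG. Over 300-base windows (250 before and 50 after the start) the core was in 34 of 42 promoter entries of the 31 members with an entry, 80.952%, against 43.773% of all 32851 entries. Slc2a3, Bnip3l and Ndrg1 had no entry. In 35 of the 42 entries, bases 11 to 50 after the start lay unbroken in an annotated transcript of the gene, and in the rest they did not. The core contains a CG, and the members' promoters held a median of 21 CG pairs against 7 in all entries, so the shares are not those of like sequences. The E-box was in 4 of the 42 entries (7.15% of all), and ACAAAG or ACAATG, letters bound by Sox factors, in 5 (28.596% of all). The matches are letters in a window and do not show binding.

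The members moved both ways. In pMIR-Sox2 against pMIR, 6 of 34 rose, 7 fell and 21 did not pass an adjusted p of 0.05 in edgeR's quasi-likelihood test. That is 38.2% of the members, while 43.2% of all 12898 genes tested apart from Sox2 were called (23.2% rose and 20% fell). The median log2 fold change was −0.09 over the members and −0.02 over all genes. Leaving out single libraries lowered the falls to 4 (pMIR-Sox2 replicate 1), 3 (pMIR-Sox2 replicate 2) and 3 (pMIR replicate 3). All libraries of the groups lay apart in 10 members above and 7 below, while 56.5% of all genes tested had no overlap (28.9% above and 27.6% below). Over all genes the falls in fits with 1 library left out numbered 1783 to 2885. With the replicate pairs as a block, 7 members rose and 8 fell, while 52.7% of all genes were called (27% rose and 25.7% fell).

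**Figure D1:**
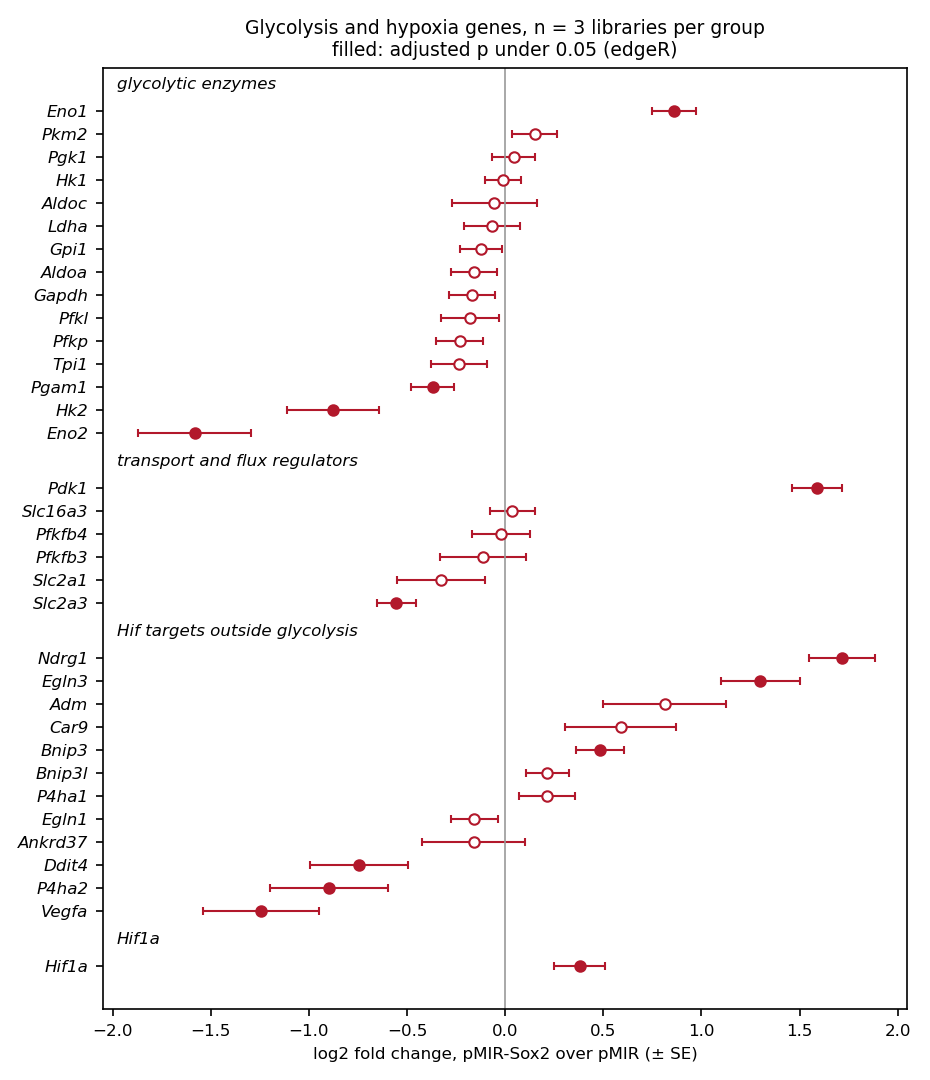
Log2 fold change of pMIR-Sox2 over pMIR with its standard error for the 34 members by role, 3 libraries a group, with filled points for an adjusted p under 0.05. Most glycolytic enzymes lie close to 0, with Eno1 apart on the right and Hk2 and Eno2 on the left, while the Hif targets run from −1.24 (Vegfa) to 1.72 (Ndrg1).

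Levels are CPM, a gene's share of its library's gene counts scaled by TMM. Such counts are relative, so fewer transcripts per cell and fewer cells of a kind cannot be told apart. Gene counts ran from 17153805 to 20770447 in pMIR-Sox2 libraries and from 21421769 to 27692437 in pMIR libraries. Sox2 was read at 989, 786 and 624 CPM in pMIR-Sox2 libraries, against 0.738, 0.334 and 1.78 CPM in pMIR libraries, as the labels say. Of 7 B cell markers 5 fell and 1 (Pax5) rose, and their summed level was 6061 to 8688 CPM in pMIR-Sox2, against 11612 to 13787 CPM in pMIR. T cell markers summed to at most 0.230 CPM in pMIR-Sox2 and 0.715 CPM in pMIR. Markers of macrophages and other myeloid cells summed to 29.6 to 36.4 CPM in pMIR-Sox2, against 18.3 to 21.7 CPM in pMIR, most of it Emr1, with 3 of 4 tested higher and S100a8 and S100a9 at 0 in all libraries. Stromal and endothelial markers summed to 50.1 to 63.5 CPM in pMIR-Sox2, against 22.2 to 33.9 CPM in pMIR, with 2 of 3 tested higher and 1 lower. Nearly all of this sum was Pecam1, at 53.3 ± 7.54 CPM in pMIR-Sox2 and 23.9 ± 6.95 CPM in pMIR. No other marker of the list averaged above 1.42 CPM in either group, and Col3a1 was at 0 in all libraries. The higher sum is thus that of Pecam1 and does not speak of stromal cells. The part of these shifts in the values below was not tested.

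Among the 15 glycolytic enzymes, which carry glucose to pyruvate and lactate, 1 rose, 3 fell and 11 did not pass (26.7% called, against 43.2% of all genes). Their median log2 fold change was −0.16, and 20% of them moved by over 1.5-fold, against 33.2% of all genes. Of the 15, 12 had a log2 fold change below 0 and 3 above it. Together they summed to 17992 ± 1114 CPM in pMIR-Sox2 and 17579 ± 854 CPM in pMIR after TMM scaling (SD, n = 3 each). This sum includes Eno1, at 2630 ± 205 CPM in pMIR-Sox2 and 1449 ± 52.4 CPM in pMIR, so it does not speak for most of the enzymes. With pMIR replicate 3 left out, 1 enzyme fell. Over all genes the falls ran from 1783 to 2885 in fits with 1 library left out, against 2577 with all libraries.

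Eno1, the main enolase, which makes phosphoenolpyruvate, was the enzyme that rose. It had 2543, 2865 and 2483 CPM in pMIR-Sox2 libraries, against 1509, 1412 and 1426 CPM in pMIR libraries. The groups did not overlap, and the lowest pMIR-Sox2 library lay well above the highest pMIR library. In edgeR this was a log2 fold change of 0.86 ± 0.11 (SE; adjusted p = 0.00045), a fold of 1.82. Eno1 has near-identical copies, and 26.0% of its 50-base words also occur in transcripts of other genes. Reads that align to several places were counted apart from genes by the authors, so the value rests on the rest of the transcript. The copies Eno1b, matched by its identifier and called Gm5506 in the table, and Gm4735 held 3, 2 and 1 and 61, 36 and 34 counts in pMIR-Sox2, against 3, 2 and 1 and 51, 44 and 36 counts in pMIR.

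Eno2, the neuronal enolase, went the other way at a low level. It had 0.919, 1.51 and 1.68 CPM in pMIR-Sox2 libraries, from 20, 28 and 29 counts, against 3.13, 4.48 and 4.66 CPM in pMIR libraries, from 85, 94 and 97 counts. All pMIR-Sox2 libraries lay below all pMIR libraries, with a log2 fold change of −1.58 ± 0.29 (SE, adjusted p = 0.00236). Per kilobase of exon, Eno2 made up 0.0597% of the 2 enolases in pMIR-Sox2 and 0.323% in pMIR, so its fall took little from the sum.

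Hk2, the hexokinase that activated lymphocytes induce, fell, whereas Hk1, the constitutive form, did not pass the test. Hk2 had 82.6, 60.8 and 120 CPM in pMIR-Sox2 libraries, against 160, 130 and 193 CPM in pMIR libraries. Replicate 3 was the highest in both groups, and its pMIR-Sox2 value came near the lowest pMIR value without reaching it. In edgeR this was a log2 fold change of −0.88 ± 0.23 (SE; adjusted p = 0.0148). This call ended without pMIR-Sox2 replicate 1, without pMIR replicate 3 and with no filter, and over all alternatives the adjusted p ran from 1.45e-06 to 0.107, the lowest being with the pairs as a block. Hk1 was at 187 ± 6.2 CPM in pMIR-Sox2 and 189 ± 6.68 CPM in pMIR (n = 3 each), with a 95% interval of the log2 fold change from −0.22 to 0.19. Per kilobase of exon Hk2 made up 39.4 ± 7.32% of the 2 hexokinases in pMIR-Sox2 and 54.7 ± 4.04% in pMIR (SD, n = 3 each), and no pMIR-Sox2 library reached a pMIR library.

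Pgam1, phosphoglycerate mutase, had 127, 108 and 130 CPM in pMIR-Sox2 libraries, against 168, 144 and 160 CPM in pMIR libraries. The groups did not overlap, and it fell by 0.37 ± 0.11 on the log2 scale (SE, adjusted p = 0.0234). The call ended with library totals only, without pMIR-Sox2 replicate 2, without pMIR replicate 1 and without pMIR replicate 3. Over all alternatives the adjusted p ran from 0.00319 to 0.0907, the lowest being with the pairs as a block. Of its 50-base words, 36.2% also occur in other genes, all of them in the pseudogene Pgam1-ps2, which held at most 13 counts in a pMIR-Sox2 library and at most 30 in a pMIR library.

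Gapdh and Ldha, also among the abundant enzymes, did not pass. Gapdh, which reduces NAD+ and serves in many laboratories as a loading control, had 1867, 1958 and 2232 CPM in pMIR-Sox2 libraries, against 2393, 2145 and 2275 CPM in pMIR libraries. The groups overlapped, and edgeR gave a log2 fold change of −0.17 ± 0.12 (SE, adjusted p = 0.277), with a 95% interval from −0.44 to 0.10. Ldha, which turns pyruvate into lactate, had 2479, 2087 and 2741 CPM in pMIR-Sox2 libraries, against 2761, 2244 and 2649 CPM in pMIR libraries. In both groups replicate 2 was the lowest, and the interval of the log2 fold change ran from −0.39 to 0.25 around −0.07.

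Pkm2, the symbol the table uses for the pyruvate kinase gene now called Pkm, was higher in every pMIR-Sox2 library than in any pMIR library. It averaged 4082 ± 170 CPM in pMIR-Sox2 and 3680 ± 226 CPM in pMIR (n = 3 each), but the log2 fold change of 0.15 did not pass (adjusted p = 0.318). Counts per gene do not separate its M1 and M2 splice forms. Of the remaining enzymes, Gpi1 (glucose phosphate isomerase, −0.12), Pfkl and Pfkp (phosphofructokinase, −0.18 and −0.23), Aldoa and Aldoc (aldolase, −0.16 and −0.06), Tpi1 (triose phosphate isomerase, −0.23) and Pgk1 (phosphoglycerate kinase, 0.04) did not pass. Gpi1 was lower in every pMIR-Sox2 library (1213 ± 84.4 CPM) than in any pMIR library (1320 ± 14.1 CPM, n = 3 each). The 95% intervals of these 7 reached from 0.682-fold (Tpi1) to 1.35-fold (Aldoc), so a change of a size inside a gene's own interval remains possible for that gene. Tpi1 passed without pMIR-Sox2 replicate 3, with adjusted p from 0.0370 to 0.480 over all alternatives.

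**Figure D2:**
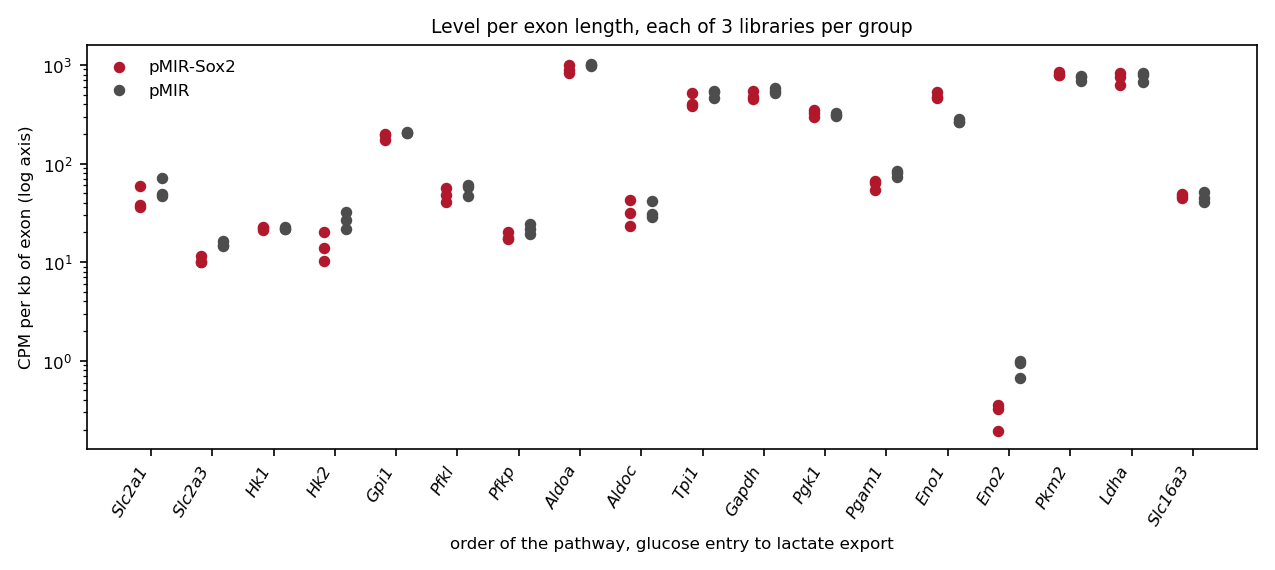
CPM per kilobase of exon, on a log axis, for the 2 glucose transporters, the 15 enzymes and the lactate exporter in the order of the pathway, with a point for each of the 3 pMIR-Sox2 and 3 pMIR libraries. Aldoa, Pkm2 and Ldha stand highest in both groups, Eno2 lowest, and the groups do not overlap at Slc2a3, Hk2, Gpi1, Pgam1, Eno1, Eno2 and Pkm2.

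Per kilobase of exon, the order of the enzymes was led by Aldoa at 900 ± 88.5, Pkm2 at 816 ± 34 and Ldha at 736 ± 99.4 CPM per kb in pMIR-Sox2, against 1004 ± 23.7, 736 ± 45.2 and 771 ± 82.2 in pMIR (SD, n = 3 each). In pMIR-Sox2, neighbours among these 3 differed by about their spread or less, and in pMIR every Aldoa library stood above every Ldha and Pkm2 library. Eno1 stood at 489 ± 38.2 CPM per kb in pMIR-Sox2, level with Gapdh at 489 ± 46.0, and at 269 ± 9.75 in pMIR, below Gapdh at 550 ± 30.0 and Pgk1 at 313 ± 9.45. Lengths are of merged exons in GENCODE M21 on GRCm38, and genes with many isoforms appear lower by this measure. Of the 50-base words, 53.9% in Pgk1, 25.8% in Pkm2 and 25.1% in Gapdh also occur in transcripts of other genes. The order is not corrected for this.

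Of the 6 genes of transport and flux control, 1 rose, 1 fell and 4 did not pass (33.3% called, against 43.2% of all genes). Pdk1, the kinase that switches off pyruvate dehydrogenase and so keeps pyruvate out of the citric acid cycle, rose 3.01-fold. It had 587, 732 and 578 CPM in pMIR-Sox2 libraries, against 197, 211 and 223 CPM in pMIR libraries. Every pMIR-Sox2 library stood far above the highest pMIR library, and edgeR gave a log2 fold change of 1.59 ± 0.13 (SE, adjusted p = 3.83e-05).

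Slc2a3, the glucose transporter GLUT3, fell. It had 71.9, 72.5 and 82.9 CPM in pMIR-Sox2 libraries, against 109, 106 and 118 CPM in pMIR libraries. The groups did not overlap, and edgeR gave a log2 fold change of −0.55 ± 0.10 (SE, adjusted p = 0.00229). Slc2a1, the main glucose transporter of activated lymphocytes (GLUT1), had 132, 127 and 210 CPM in pMIR-Sox2 libraries, against 171, 164 and 252 CPM in pMIR libraries. Replicate 3 was the highest in each group, and the groups overlapped because of it. Without the block the log2 fold change of −0.33 ± 0.23 did not pass (SE, adjusted p = 0.271), and with the pairs as a block it fell by 0.34 ± 0.10 (SE, adjusted p = 0.00659). It also passed without pMIR-Sox2 replicate 3, and over all alternatives the adjusted p ran from 0.00659 to 0.733.

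Slc16a3, the lactate exporter MCT4, was at 249 ± 13.1 CPM in pMIR-Sox2 and 242 ± 29.2 CPM in pMIR (n = 3 each). Pfkfb3 and Pfkfb4, which make the activator of phosphofructokinase, were at 59.0 ± 16.4 and 8.39 ± 0.388 CPM in pMIR-Sox2, against 63.8 ± 16.6 and 8.53 ± 0.707 CPM in pMIR (n = 3 each). None of the 3 passed in edgeR, and their log2 fold changes were 0.04, −0.11 and −0.02.

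Hif1a, whose product is the oxygen-regulated subunit, rose by 0.38 ± 0.13 on the log2 scale (SE, adjusted p = 0.0413). It had 190, 155 and 138 CPM in pMIR-Sox2 libraries, against 118, 136 and 118 CPM in pMIR libraries. The groups came within 3 CPM of each other. The call ended without pMIR-Sox2 replicates 1 or 2 and without pMIR replicates 1 or 3. Over all alternatives the adjusted p ran from 0.00929 to 0.137, the lowest being with the pairs as a block. The strand setting of the counting is not given in the sources used here, and 5.6% of the exon bases of Hif1a overlap the antisense gene Gm15283.

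The 12 Hif targets outside glycolysis spread more widely than the glycolytic enzymes. Of these targets, 3 rose, 3 fell and 6 did not pass (50% called, against 43.2% of all genes). A change of over 1.5-fold was fitted in 58.3% of them, against 20% of the enzymes and 33.2% of all genes. Car9 and Adm, which did not pass, are counted in the 58.3%, Car9 at a fold of 1.503. The standard errors on the log2 scale were 0.25 to 0.31 for Vegfa, Ddit4, P4ha2, Adm and Car9, and 0.17 and 0.20 for Ndrg1 and Egln3. Wider fitted changes thus came in part from genes with wide errors. Among 49 other tested genes of the Hif pathway the share was 28.6%, below that of all genes. The median log2 fold change of the 12 targets was 0.21, against −0.16 for the glycolytic enzymes. The enzymes' median minus that of the Hif targets was −0.37, and −0.17 with the 6 transport and flux genes joined to the Hif targets. From each list's median log2 CPM by library, the standard error of the difference between groups was 0.288 for the Hif targets and 0.076 for the enzymes. Joined as if the lists were independent and the libraries unpaired, these gave 0.298 beside the difference of −0.37. This difference is given as a description and was not tested. With pMIR-Sox2 replicate 1, pMIR replicate 2 or pMIR replicate 3 left out, 1 fell. With pMIR-Sox2 replicate 2 left out the count in edgeR was 0, where 2 were lower at an unadjusted p under 0.05. Over all genes the falls ran from 1783 to 2885 in fits with 1 library left out, against 2577 with all libraries. With all libraries 3 fell by the DESeq2 Wald test, by limma-voom and with the pairs as a block.

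Ndrg1, a stress-induced gene of the N-myc downstream regulated family, rose the most. It had 120, 180 and 135 CPM in pMIR-Sox2 libraries, against 42.5, 38.6 and 51.2 CPM in pMIR libraries. The groups lay far apart, with a log2 fold change of 1.72 ± 0.17 (SE, adjusted p = 0.0001), a fold of 3.29. The antisense gene Gm17035, which overlaps 6.4% of its exon bases, held 20, 45 and 20 counts in pMIR-Sox2, against 6, 13 and 18 in pMIR, beside 2614, 3321 and 2333 counts of Ndrg1 in pMIR-Sox2.

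Egln3 and Egln1 are prolyl hydroxylases that act on Hif1a and are themselves Hif targets, and they parted. Egln3 had 55.4, 93.7 and 67.7 CPM in pMIR-Sox2 libraries, against 24.7, 28.5 and 34.9 CPM in pMIR libraries. No libraries overlapped, and edgeR gave a log2 fold change of 1.30 ± 0.20 (SE, adjusted p = 0.00107). Egln1, the main oxygen sensor of the family, was at 181 ± 26.1 CPM in pMIR-Sox2 and 202 ± 8.38 CPM in pMIR (n = 3 each), and its interval ran from −0.43 to 0.11. Per kilobase of exon, Egln3 made up 34.8 ± 6.58% of the 2 in pMIR-Sox2 and 16.3 ± 1.83% in pMIR (SD, n = 3 each).

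Bnip3 and Bnip3l are mitochondrial receptors for the removal of mitochondria by autophagy. Bnip3 had 229, 258 and 307 CPM in pMIR-Sox2 libraries, against 187, 193 and 188 CPM in pMIR libraries. The pMIR libraries lay within 6 CPM of each other and the pMIR-Sox2 libraries all above them, with a log2 fold change of 0.48 ± 0.12 (SE, adjusted p = 0.0107). Of its 50-base words, 47.2% are also in other genes. The antisense gene Gm45507, which is not among the counted genes, overlaps 22.3% of the exon bases of Bnip3. As the strand setting is not given, its part in the Bnip3 counts cannot be told. Bnip3l was likewise higher in every pMIR-Sox2 library, at 403 ± 40.4 CPM in pMIR-Sox2 and 347 ± 3.22 CPM in pMIR (n = 3 each). Its log2 fold change of 0.21 ± 0.11 did not pass (SE, adjusted p = 0.138), but did with library totals only and without pMIR-Sox2 replicate 1, with adjusted p from 0.0402 to 0.303 over all alternatives.

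Vegfa, the growth factor of blood vessels, fell the most of the Hif targets. It had 36.7, 52.1 and 78.5 CPM in pMIR-Sox2 libraries, against 93.4, 122 and 180 CPM in pMIR libraries. Replicate 3 was the highest and replicate 1 the lowest in both groups, and the groups did not overlap. In edgeR this was a log2 fold change of −1.24 ± 0.30 (SE; adjusted p = 0.00918) without the block and −1.26 ± 0.10 (SE, adjusted p = 1.78e-08) with it. With no filter on low counts, or with pMIR-Sox2 replicate 2 left out, the call ended, and the adjusted p reached 0.112 at most. The 300-base window at the first of the 2 Vegfa starts held no match to the Hif core, and the window at the other start held 2.

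Ddit4, which encodes the mTORC1 inhibitor REDD1, had 43.0, 61.7 and 75.7 CPM in pMIR-Sox2 libraries, against 74.1, 91.9 and 136 CPM in pMIR libraries. The groups overlapped, since pMIR-Sox2 replicate 3 stood above pMIR replicate 1, yet within each number the pMIR-Sox2 library was the lower. In edgeR this was a log2 fold change of −0.75 ± 0.25 (SE; adjusted p = 0.0387) without the block and −0.74 ± 0.10 (SE, adjusted p = 8.47e-06) with it. The call ended without pMIR-Sox2 replicates 1 or 2, without pMIR replicates 2 or 3 and with no filter, with adjusted p up to 0.205. Without pMIR replicate 3 the log2 fold change was −0.47.

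P4ha2 and P4ha1 encode the catalytic subunits of collagen prolyl hydroxylase. P4ha2 had 2.89, 4.49 and 6.55 CPM in pMIR-Sox2 libraries, against 6.67, 8.20 and 11 CPM in pMIR libraries, so that the groups came close without overlap. It fell by 0.90 ± 0.30 on the log2 scale (SE, adjusted p = 0.0364). The call ended without pMIR-Sox2 replicates 1 or 2 and without pMIR replicates 2 or 3. Over all alternatives the adjusted p ran from 0.000277 to 0.134, the lowest being with the pairs as a block. P4ha1, the far more abundant subunit, was at 238 ± 42.7 CPM in pMIR-Sox2 and 205 ± 20.2 CPM in pMIR (n = 3 each), and its log2 fold change of 0.21 did not pass (adjusted p = 0.261).

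Adm, the vasodilator peptide adrenomedullin, had 78.0, 75.6 and 100 CPM in pMIR-Sox2 libraries, against 45.6, 25.6 and 73.4 CPM in pMIR libraries. All pMIR-Sox2 libraries were above all pMIR libraries by a narrow margin, as pMIR replicate 3 came within 3 CPM of the lowest of them. The log2 fold change of 0.81 ± 0.31 did not pass without the block (SE, adjusted p = 0.0621) and was 0.91 ± 0.22 with it (SE, adjusted p = 0.0159). It also passed by the DESeq2 Wald test, by limma-voom, with library totals only and without pMIR replicate 3, with adjusted p from 0.00721 to 0.292 over all alternatives. Without pMIR replicate 3 its log2 fold change was 1.24.

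Car9, the tumour-associated carbonic anhydrase, was near the limit of detection, with 27, 41 and 30 counts in pMIR-Sox2 libraries, against 32, 22 and 25 counts in pMIR libraries. At 1.73 ± 0.489 CPM in pMIR-Sox2 and 1.14 ± 0.0824 CPM in pMIR (n = 3 each) it did not pass (adjusted p = 0.124). Ankrd37, an ankyrin repeat gene of unclear function, was at 30.8 ± 11.2 CPM in pMIR-Sox2 and 34.4 ± 8.05 CPM in pMIR (n = 3 each), and its interval of −0.75 to 0.43 allows a change of over 1.5-fold downward.

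**Figure D3:**
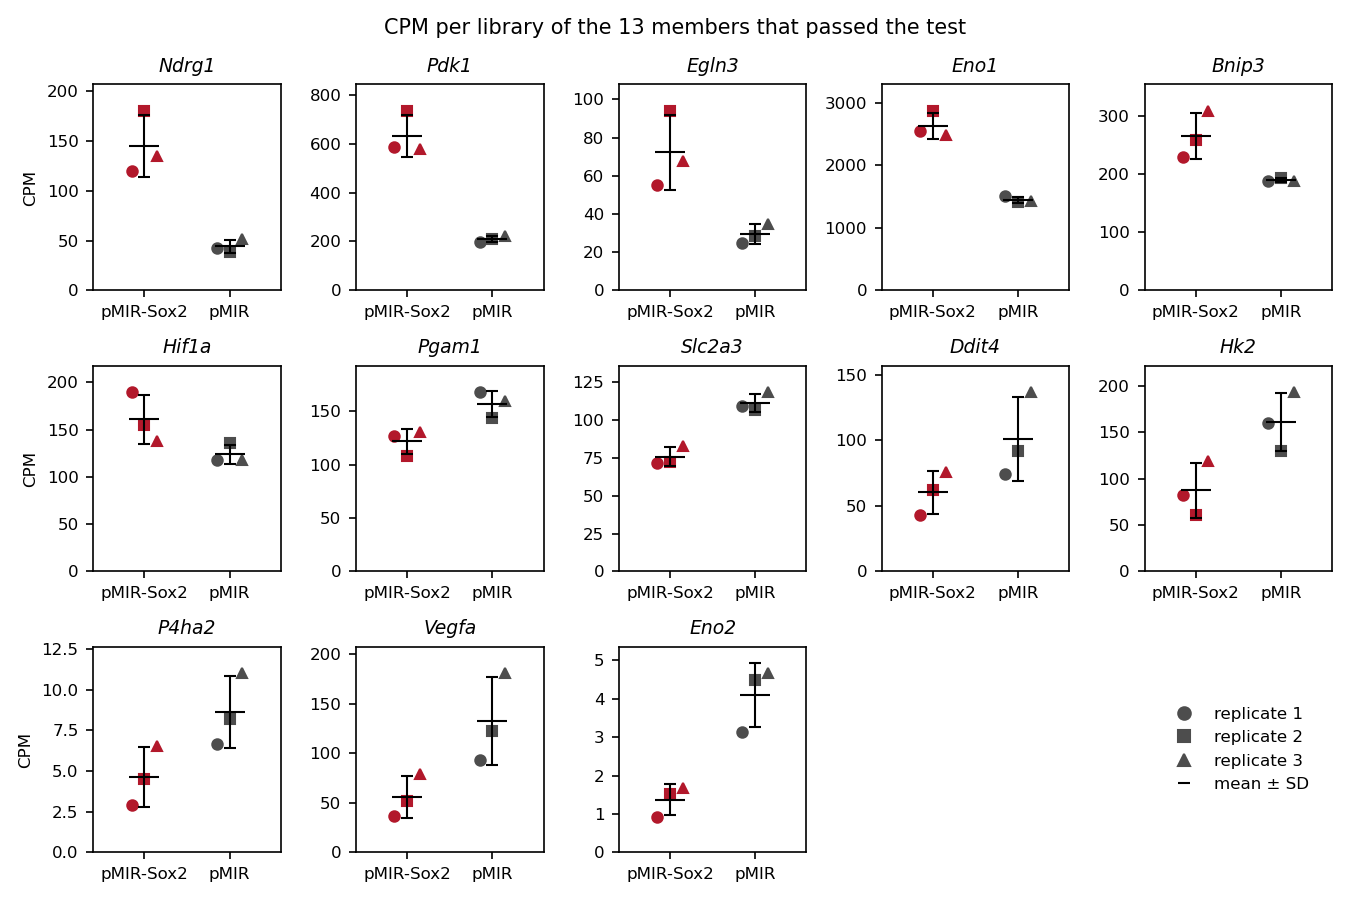
CPM per library of the 13 members that passed the test, from the highest to the lowest log2 fold change, pMIR-Sox2 left and pMIR right, with the mean and SD of 3 libraries and a symbol for each replicate number. Ddit4 is the gene whose groups overlap, and in Vegfa, Ddit4 and P4ha2 replicate 3 is the highest of each group.

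The libraries of number 12 (replicate 3) stood above the others of their group in most of these genes. In pMIR, replicate 3 was the highest library in 11 of the 12 Hif targets and in 23 of the 34 members, while over all genes tested it was the highest in 29.6%. In pMIR-Sox2, replicate 3 was the highest in 7 of the 12 Hif targets and in 23 of the 34 members, against 36.8% of all genes tested. The library of number 8 in pMIR-Sox2 was the lowest in 11 of the 12 Hif targets, against 29.4% of all genes tested. In 6 of the 12 Hif targets number 12 was the highest in both groups, and in 8 number 8 was the lowest in both. The count over both groups was not made for all genes, so these 2 counts have no background. Over all genes tested, deviations of same-numbered libraries also correlated, at 0.242, 0.359 and 0.189 (numbers 8, 9 and 12). The members were not chosen by this order, and it was not tested.

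Within numbers, Vegfa was lower in pMIR-Sox2 by log2 differences of −1.35, −1.23 and −1.20 (numbers 8, 9 and 12), and Slc2a3 by −0.60, −0.55 and −0.51. Their levels thus shifted between numbers more than the differences did. Ndrg1 was higher by 1.5, 2.22 and 1.40, Egln3 by 1.17, 1.72 and 0.96, and Adm by 0.77, 1.56 and 0.45, with number 9 the largest each time. Car9, at a low count, differed by 0.07, 1.08 and 0.53, also with number 9 the largest.

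**Figure D4:**
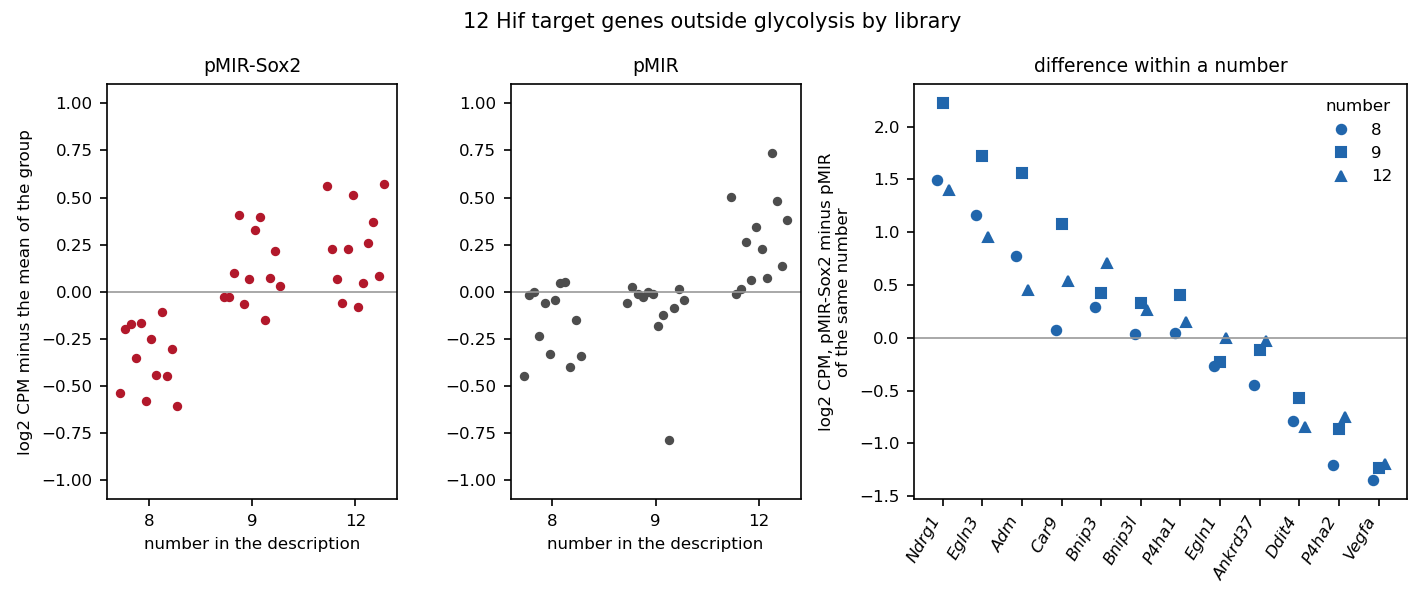
The 12 Hif targets outside glycolysis by library: pMIR-Sox2 left and pMIR in the middle, log2 CPM minus the mean of the gene over the 3 libraries of its group, by the number in the sample description, a point per gene; right, the log2 difference of pMIR-Sox2 and pMIR within each number. Number 12 lies mostly above 0 in both groups, number 8 below it in pMIR-Sox2, and within numbers Vegfa differs by −1.35 to −1.20.

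Other genes of the pathways also went both ways. Of 46 tested genes of glucose uptake, pyruvate, glycogen and pentose phosphate metabolism, 9 rose, 9 fell and 28 did not pass, 39.1% against 43.2% of all genes. The falls numbered 5 without pMIR-Sox2 replicate 2, 5 without pMIR replicate 1 and 4 without pMIR replicate 3. Over all genes they ran from 1783 to 2885 in fits with 1 library left out, against 2577 with all libraries. The genes of smallest adjusted p include subunits and a kinase of pyruvate dehydrogenase. Pdhb and Pdha1, subunits of the pyruvate dehydrogenase that Pdk1 inhibits, were at 254 ± 29.2 and 252 ± 31.4 CPM in pMIR-Sox2, against 92.3 ± 7.69 and 149 ± 3.72 CPM in pMIR (n = 3 each). They rose by 1.46 (adjusted p = 4.26e-05) and 0.75 (adjusted p = 0.00081) on the log2 scale. Other genes of the complex did not pass, with log2 fold changes of 0.04 (Dlat), 0.16 (Dld) and 0.19 (Pdhx). Nor did its phosphatases Pdp1 (0.09) and Pdp2 (−0.39) or its kinase Pdk3 (0.26).

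Pdk2, another kinase of that enzyme, had 18.8, 30.6 and 17 CPM in pMIR-Sox2 libraries, against 4.13, 3.67 and 4.13 CPM in pMIR libraries, and rose by 2.47 ± 0.24 (SE, adjusted p = 8.87e-05). Gpd2, the mitochondrial glycerol phosphate dehydrogenase, rose by 1.32 and Gyg, glycogenin, by 1.77, with Gyg at 186, 317 and 146 CPM in pMIR-Sox2 libraries, against 60.8, 75.4 and 54.3 CPM in pMIR libraries. Slc2a6, another member of the glucose transporter family, fell by 1.43 on the log2 scale to 95.1 ± 17.2 CPM in pMIR-Sox2, against 257 ± 24.1 CPM in pMIR (n = 3 each).

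Of 49 other tested genes of the Hif pathway, 9 rose, 9 fell and 31 did not pass, 36.7% against 43.2% of all genes. With the pairs as a block 15 fell, in a fit where 25.7% of all genes fell, against 20% without the block. Among fits that left out 1 library, 16 fell (pMIR-Sox2 replicate 3 left out), 4 fell (pMIR-Sox2 replicate 2 or pMIR replicate 3) and 2 fell (pMIR-Sox2 replicate 1 or pMIR replicate 1). The falls among all genes also moved over such fits, from 1783 to 2885, against 2577 with all libraries. Bhlhe41, a transcriptional repressor, fell by 2.46 ± 0.29 on the log2 scale, to 5.74, 9.95 and 11.1 CPM in pMIR-Sox2 libraries, against 33.3, 64.6 and 48.3 CPM in pMIR libraries. Car12, a carbonic anhydrase, rose by 2.38, Plod2, a collagen lysyl hydroxylase, by 0.85, Insig2, an inhibitor of sterol synthesis, by 0.63 and Kdm4c, a histone demethylase, by 0.53. Bnip2 had the smallest adjusted p of the list, and rose by 1.72 to 261 ± 40.9 CPM in pMIR-Sox2, against 79.4 ± 2.07 CPM in pMIR (n = 3 each), but it is a relative of Bnip3 by name more than a known Hif target.

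Several genes that control Hif did not pass, while others did. Cul2, the scaffold of the ubiquitin ligase that holds Vhl, fell by 0.41 on the log2 scale (adjusted p = 0.00825), and Egln3 rose, as given above. Vhl, which recognises hydroxylated Hif1a, was at 39.8 ± 4.22 CPM in pMIR-Sox2 and 38.4 ± 3.74 CPM in pMIR, and Arnt, the constant partner of Hif1a, at 79.3 ± 3.69 and 80.8 ± 6.91 CPM (n = 3 each). Epas1, which encodes Hif2a, was at 3.07 ± 0.680 CPM in pMIR-Sox2 and 2.96 ± 0.347 CPM in pMIR, and Egln2 at 47.6 ± 1.84 and 57.3 ± 3.83 CPM (n = 3 each). None of the 4 passed in edgeR, with log2 fold changes of 0.05, −0.03, 0.04 and −0.27. Hif3a, another Hif subunit, did not pass either, at −0.65 (adjusted p = 0.0861). These genes were picked for their roles after their values were seen.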

How the data were processed

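RNA sequencing of sorted mouse B cells was analysed from the raw read counts per gene that the authors deposited for 3 pMIR-Sox2 and 3 pMIR libraries. The submitters' processing notes list HTSeq 0.6.1p1, TopHat2 2.0.11, Trimmomatic 0.32, SAMtools 0.1.19 and Bowtie2 2.2.2, and the build mm9. The strand setting and annotation release are not given in the sources used here. Closing lines that name no gene were left out; reads not uniquely placed were 23.1 to 26.5% in pMIR-Sox2 and 25.7 to 26.0% in pMIR. Counts were tested with edgeR 4.0.16 (filterByExpr, TMM, robust quasi-likelihood F test, Benjamini-Hochberg over 12899 genes, threshold 0.05). On simulated counts for 12422 genes it recovered 12, 31, 46 and 48 of 50 genes changed 1.5-, 2-, 4- and 8-fold, with 15 false calls. Only these genes were changed, a far smaller share than the 43.2% called in the data. The cut on adjusted p thus differed, and the recovery does not carry over to these data. Deviations of same-numbered libraries from their group means correlated at 0.242, 0.359 and 0.189 (numbers 8, 9 and 12, from the sample descriptions), so a fit with pairs as a block was also made. Further alternatives were other scalings, no filter, DESeq2, limma-voom and leaving out each library. Exon lengths, overlaps and shared words came from GENCODE M21 (GRCm38), another build than the files', and promoters from RefSeq GRCm38.p6. All members were named, with every library's value for those past the threshold and for Hif1a, Slc2a1, Gapdh, Ldha and Vegfa, and up to 6 genes of smallest adjusted p from each list of other pathway genes. Members and lists were chosen with earlier results of these data known.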

Additional observations from a re-analysis of the deposited data

How the results depend on the processing

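None of the 13 called members changed sign under any of the 12 alternatives. With library totals only, 5 Hif targets rose. In that fit 3414 of all genes rose and 2059 fell, against 2990 and 2577 with TMM. The median log2 fold change of all genes with library totals only was 0.0604, against −0.02 with TMM. It was 0.0271 with no filter and −0.0085 with DESeq2. With no filter, 4 members and 1 Hif target fell. With the replicate block, 2 transport and flux genes and 15 other Hif pathway genes fell, and apart from Slc2a1 and Adm it changed no call of a member. With the 6 transport and flux genes joined to the glycolytic enzymes, 2 of them rose. Leaving out 1 library at a time, the members that fell numbered 3 to 9 and those that rose 5 to 6, the Hif targets that fell 0 to 3, the glycolytic enzymes that fell 1 to 4, the transport and flux genes that fell 1 to 2, the other Hif pathway genes that fell 2 to 16 and the other glycolysis genes that fell 4 to 9. The members' median ran from −0.15 to −0.0039 and that of all genes from −0.0171 to −0.0079. Over all genes, 1783 to 2885 fell and 2362 to 3321 rose in these fits. The cause of these shifts was not tested. The 3 libraries a group limit the precision: the biological coefficient of variation was 14.4%, and genes such as Car9 and Eno2 rest on few counts. Counts are relative and cover RNA only.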

Other observations

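Enzymes of the pentose phosphate pathway, which branches from glycolysis and supplies NADPH and ribose, were picked out from the other glycolysis genes after their values were seen. In pMIR-Sox2 against pMIR, 5 fell in edgeR's quasi-likelihood test: Rpia (log2 fold change −0.63, adjusted p = 0.00639), Tkt (−0.41, adjusted p = 0.0286), Pgls (−0.40, adjusted p = 0.0209), Pgd (−0.35, adjusted p = 0.0173) and G6pdx (−0.33, adjusted p = 0.0285). Taldo1 (−0.12, adjusted p = 0.340) and Rpe (−0.08, adjusted p = 0.489) did not pass. Over all genes 20% fell. Of the whole list of other glycolysis genes, to which these belong, 9 fell, against 6 with library totals only and 4 without pMIR replicate 3. Of all genes 2577 fell, against 2059 with library totals only and 1783 to 2885 in fits that left out 1 library.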
